A study of Mus musculus with 10 samples.

Results

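The genes described here are 10 transcription factors that pattern the developing limb: the T-box factors Tbx2, Tbx3, Tbx4, Tbx5, Tbx15 and Tbx18, the paired-type homeodomain factors Pitx1 and Shox2, and the TALE homeodomain factors Meis1 and Meis2. They were chosen by name from a count table of 56750 features, whose gene identifiers were matched to symbols, and all 10 had reads in every tumor. RNA had been sequenced from 3 dFLEx tumors and 2 KP tumors of mice. The dFLEx tumors (genotype dFLEx CDS +/-) are sarcomas carrying the fusion CIC::DUX4, which joins the transcriptional repressor CIC to part of the activator DUX4. The fusion sits in Rosa26 behind a CAG promoter and was switched on by electroporating plasmids for the recombinases Cre and FLPE, both driven by CAG, into the gastrocnemius muscle of the hind limb. The CAG promoter is active in most cell types, so the cell that gave rise to each tumor is not fixed by the design. The KP tumors are sarcomas from mice whose genotype includes floxed p53 alleles, and they carry no fusion. The dFLEx mice were 6 to 12 weeks old at electroporation. The sources used here give neither the site of the KP tumors nor the age of the KP mice. Each tumor's RNA had been split into duplicate libraries, 9 of which were analysed here (both duplicates of 4 tumors and 1 library of KP 3802), and duplicates were summed so that a tumor counted once.

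Limb identity and limb axes are set in the embryo by a small network of such factors. Pitx1 and its target Tbx4 act in the hind limb bud and Tbx5 in the fore limb bud, where they start outgrowth through fibroblast growth factor signaling. Meis1, Meis2 and Shox2 mark and build the proximal limb, Tbx2 and Tbx3 are repressors expressed along the limb margins that help to place the digits, and Tbx15 and Tbx18 act in limb mesenchyme and skeleton. Several of these genes stay on in adult connective tissue in a pattern that records body position. Tbx2 and Tbx4 lie side by side on chromosome 11 of mm39 (85723377 to 85732774 and 85777248 to 85806923), and Tbx3 and Tbx5 on chromosome 5 (119808734 to 119822789 and 119970733 to 120023284), with all 4 genes on the plus strand. The gap was 44473 bases within the former pair and 147943 bases within the latter.

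The libraries held 20503474 to 46302223 reads assigned to features. The fusion transcript was at 105 to 423 CPM (counts per 1000000 reads of a library total scaled by TMM, the trimmed mean of M-values) in the dFLEx tumors, at 0 counts in KP 3800 and at 6 counts in KP 3802. Etv4, a standard target of the fusion, was at 3555 ± 759 CPM (SD, n = 3) in dFLEx and 149 ± 44.2 (SD, n = 2) in KP. KP 3802 stood apart from the other tumors. Over 1546 olfactory and vomeronasal receptor genes, which a sarcoma is not known to use, it had 0.128 CPM per kilobase of exon, against 0.00243 to 0.0230 in the other 8 libraries. A panel of 6 macrophage markers summed to 4015 CPM in KP 3802, 1220 in KP 3800 and 551 to 751 in dFLEx, and one of 5 T cell markers to 41.1, 9.26 and 6.16 to 7.73 CPM. The macrophage marker C1qa made up 3099 CPM of the sum in KP 3802 and 509 CPM of that in KP 3800. C1qb and Mrc1 were also higher in KP 3802 than in KP 3800, while Cd68, Csf1r and Adgre1 were lower. The part of these differences in the results below was not tested. Where the fold change of a limb factor rests on KP 3802, it is also given without that tumor. In bulk tumors, fewer cells of a type and less RNA per cell cannot be told apart.

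No limb factor differed between dFLEx and KP at an adjusted p under 0.05 (0 of 10, edgeR quasi-likelihood test on tumor sums, Benjamini-Hochberg adjustment over all genes tested), and 1 of 10 did so at an unadjusted p under 0.05. Over all 24743 genes tested, 0.182% passed the adjusted and 10.6% the unadjusted threshold. By DESeq2 on the same sums 1 of 10 passed the adjusted threshold, against 6.18% of all genes, and by edgeR without a filter on low counts 1 of 10 against 1.98%. Fits on the 9 libraries passed 2 of 10 with libraries as independent samples (17.1% of all genes) or with the duplicate number as a block (12.7%), and 1 of 10 by limma-voom with a random effect for each tumor (2.78%). The log2 fold change of dFLEx over KP was above 0 for 6 factors and below 0 for 4, with a median of 0.14 against -0.18 over all genes tested. Library totals in place of TMM, which lowered the values by a median of 0.30, put Shox2 and Meis1 below 0 as well, and upper quartile scaling did so for Shox2 and Meis2. In 9 of the 10 the tumors of the groups overlapped. Tbx3 alone was higher in every dFLEx tumor than in both KP tumors, which 13.7% of all genes were, and no factor was lower in every dFLEx tumor, which 11.7% of all genes were.

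**Figure D1:**
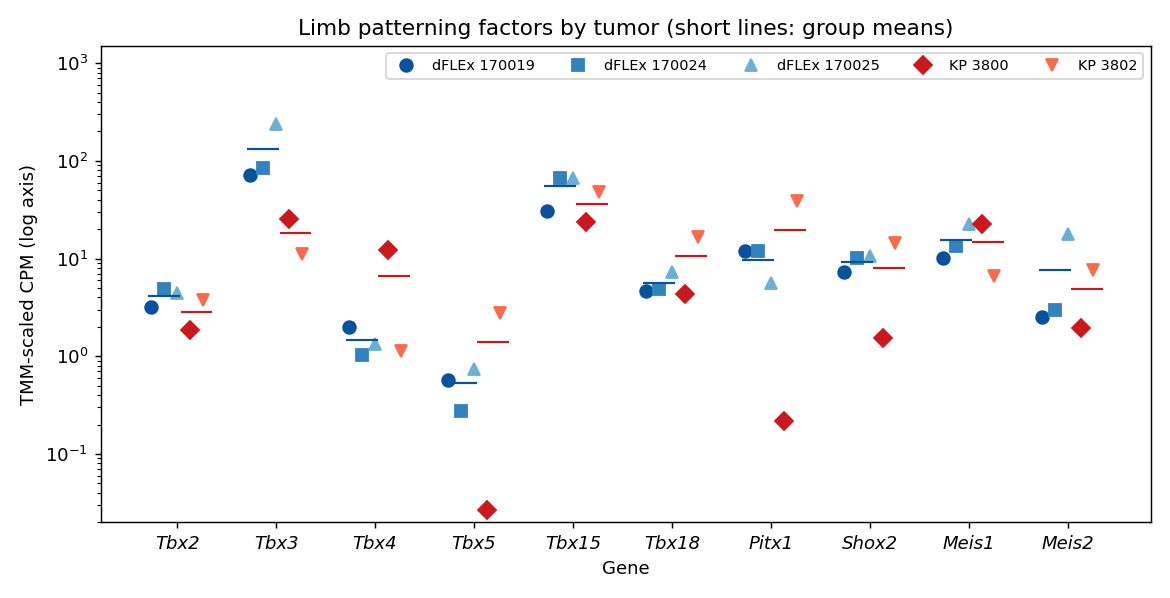
TMM-scaled CPM (log axis) of the 10 limb factors, 1 point per tumor, with group means as short lines (3 dFLEx tumors in blue, 2 KP tumors in red). Tbx3 is the gene whose blue points all lie above its red points, and the red points lie farthest apart for Pitx1 and Tbx5.

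Tbx3, a T-box repressor of the limb margins, was at 72.1, 84.9 and 239 CPM in dFLEx tumors 170019, 170024 and 170025. It was at 25.4 CPM in KP 3800 and 11.1 CPM in KP 3802. All dFLEx tumors thus lay above both KP tumors, with 170025 well above the rest, and the lowest dFLEx value was 2.84-fold the highest KP value. Its log2 fold change was 2.86 (SE 0.82, unadjusted p = 0.00868, adjusted p = 0.237 by edgeR). With each tumor left out in turn it ranged from 2.10, without dFLEx 170025, to 3.75, without KP 3800, and its adjusted p by edgeR from 0.308 to 0.513. It passed the adjusted threshold by DESeq2 on tumor sums (adjusted p = 0.00407), by edgeR without a filter on low counts (adjusted p = 0.0427), and in the fits on single libraries, which treat duplicates of 1 tumor as separate or linked samples.

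Tbx3 shared 448 exonic bases (6.76% of its exonic length) with 2 neighboring features. The antisense transcript Tbx3os1 was at 20.1, 8.74 and 8.11 CPM in dFLEx 170019, 170024 and 170025, at 0.215 CPM in KP 3800 and at 4.31 CPM in KP 3802. It was also higher in every dFLEx tumor, but its order among them was the reverse of the order of Tbx3, and its log2 fold change of 2.46 (SE 1.197) did not pass the test (adjusted p = 0.559, edgeR). The counting ignored strand, so reads in the shared stretch cannot be given to either transcript with certainty. Several marker panels moved with the same grouping, in both directions. Of 5 satellite cell markers, 2 (Myf5 and Myod1) were lower in every dFLEx tumor, as were 4 of 6 macrophage and 2 of 5 T cell markers (11.7% of all genes were). The satellite cell panel summed to 5.57 to 21.5 CPM in dFLEx, 128 in KP 3800 and 83.2 in KP 3802. Of 6 cartilage markers, 5 were higher in every dFLEx tumor (13.7% of all genes were), and together they summed to 719 to 2445 CPM in dFLEx, 1.65 in KP 3800 and 42.9 in KP 3802. The sixth, the cartilage regulator Sox9, was lower in every dFLEx tumor, at 34.5 to 68.4 CPM against 155 in KP 3800 and 132 in KP 3802. Every dFLEx tumor was also higher for 5 of 8 skeletal muscle markers (sums of 8214 to 30773 CPM in dFLEx and 1534 to 4195 in KP), 4 of 6 fibroblast markers (1669 to 5660 and 842 to 1163 CPM), 3 of 5 bone markers (111 to 438 and 8.82 to 57.6 CPM) and 3 of 6 endothelial markers (220.1 to 549 and 85.9 to 144 CPM). The bone regulator Runx2 made up 57.0 of the 57.6 CPM in KP 3800. It was at 6.79 CPM in KP 3802 and at 8.93 to 30.2 CPM in dFLEx. The fibroblast and endothelial sums, and that of the 5 cartilage markers, were lowest in 170019 and highest in 170025, as Tbx3 was. Of all genes, 29.0% rose in that order. The largest fibroblast marker, Col1a1, did so (893, 2252 and 5105 CPM), while Dcn, Lum and Pi16 were lowest in 170025. The cartilage markers Comp and Matn3 were also lowest there, and the endothelial marker Emcn was highest in 170019. The muscle and bone sums were highest in 170024. The part of these panels in the Tbx3 values was not tested.

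Tbx2, the closest paralog of Tbx3 and likewise a repressor, was at 3.16, 4.92 and 4.47 CPM in dFLEx 170019, 170024 and 170025. The KP values were 1.85 CPM in 3800 and 3.78 CPM in 3802. Tumor 170019 lay below KP 3802, so the groups overlapped, with an edgeR difference of 0.58 in log2 units (SE 0.69, adjusted p = 0.896). Every dFLEx tumor was above KP 3800, and the difference was 1.19 without KP 3802. The duplicates of KP 3800 differed most for this gene among pairs with at least 100 summed counts, with 36 and 102 counts.

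The hind limb factors Pitx1 and Tbx4 both separated the KP tumors, but in opposite directions. Pitx1, which directs hind limb identity, was at 11.8, 11.9 and 5.58 CPM in dFLEx 170019, 170024 and 170025, at 0.215 CPM (16 counts) in KP 3800 and at 38.5 CPM (948 counts) in KP 3802. The dFLEx tumors all lay between the KP tumors, which differed from each other 179-fold (95% exact interval 110 to 315, covering counting error only). The log2 fold change between groups was -0.99 (SE 1.41, adjusted p = 0.914, edgeR). Without KP 3802 it was 5.51 (SE 1.14, adjusted p = 0.0534, edgeR), with the remaining KP tumor assumed to vary as the dFLEx tumors do. In KP 3802 the Pitx1 reads were 136-fold the number that the receptor gene background of that library would give a gene of its length.

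Tbx4, the hind limb T-box factor, was at 2.02, 1.02 and 1.32 CPM in dFLEx 170019, 170024 and 170025. It was at 12.1 CPM (904 counts) in KP 3800 and at 1.14 CPM (28 counts) in KP 3802. KP 3800 was above every other tumor, 10.7-fold above KP 3802 (95% exact interval 7.34 to 16.2), and KP 3802 lay within the range of the dFLEx tumors. The edgeR fit put dFLEx over KP at -2.20 on the log2 scale (SE 0.97, adjusted p = 0.484). It was 0.51 without KP 3800 and -3.05 without KP 3802. Tbx4 passed the adjusted threshold by edgeR with libraries as independent samples (adjusted p = 0.0172) and with the duplicate number as a block (adjusted p = 0.0323). Both fits count the duplicates of KP 3800 as separate samples. It did not pass by DESeq2 on tumor sums (adjusted p = 0.193) or by limma-voom with a random effect for each tumor (adjusted p = 0.617). In KP 3802 the Tbx4 reads were only 3.14-fold the receptor gene background, the smallest such margin of the 10 factors in that library.

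Tbx5, the fore limb counterpart of Tbx4, had the lowest level per kilobase of the 10 factors in each dFLEx tumor and in KP 3800. It was at 0.572, 0.277 and 0.743 CPM (23, 16 and 59 counts) in dFLEx 170019, 170024 and 170025, at 0.0269 CPM (2 counts) in KP 3800 and at 2.76 CPM (68 counts) in KP 3802. As for Pitx1, the dFLEx tumors lay between the KP tumors. KP 3802 was 103-fold above KP 3800, with a wide 95% exact interval of 27.4 to 866 because it rests on 2 counts. The difference between groups by edgeR was -1.37 in log2 units, with SE 1.503 and adjusted p = 0.888, and turned to 4.23 (SE 1.63, adjusted p = 0.270) without KP 3802, where Tbx5 reads were 5.54-fold the receptor gene background.

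To set hind limb against fore limb factors within a tumor, the log2 ratio of Pitx1 plus Tbx4 to Tbx5 was taken per kilobase of exon. It was 5.34, 6.29 and 3.96 in dFLEx 170019, 170024 and 170025, 8.99 in KP 3800 and 4.64 in KP 3802. The KP 3800 ratio rested on 2 Tbx5 reads, all from 1 library, where they were 1.61-fold the receptor gene background. In the libraries of dFLEx 170019 and 170024, Tbx5 reads were 2.80- to 6.14-fold that background. The hind limb factors exceeded Tbx5 in all 5 tumors. The mean log2 ratio was 5.19 ± 1.17 (SD, n = 3) in dFLEx and 6.82 ± 3.08 (SD, n = 2) in KP, a difference of -1.62 (two-sided exact permutation test, p = 0.6, where 10 splits allow no p below 0.2). With Tbx4 alone in the numerator the ratio was 8.96 in KP 3800 and -0.81 in KP 3802, so in KP 3802 Tbx4 was below Tbx5 per kilobase. The difference between groups was 0.55 without KP 3800 and -3.80 without KP 3802, so its direction rested on KP 3800. With Pitx1 alone it also changed sign, to 0.95.

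Promoter sequences were read from RefSeq (GRCm38.p6) for the 5 factors matched there (Tbx4, Tbx18, Shox2, Meis1 and Meis2), as the 250 bases upstream of the start given by RefSeq. The counts were made on another build, mm39, and the windows were not placed against the starts of the counted genes. Those of 4 are shown, written from 5′ to 3′ on the strand of the gene. Of these, Shox2 and Tbx18 were higher in KP 3802, and Tbx4 and Meis1 in KP 3800. Meis2, which was also higher in KP 3802 (3.96-fold), is not shown. The intervals are chr11:85896515-85896764 (plus strand) for Tbx4, chr3:66981772-66982021 (minus strand) for Shox2, chr9:87731261-87731510 (minus strand) for Tbx18 and chr11:19018970-19019219 (minus strand) for Meis1. Capitals mark the only match found to the motifs named after the sequences.
Tbx4: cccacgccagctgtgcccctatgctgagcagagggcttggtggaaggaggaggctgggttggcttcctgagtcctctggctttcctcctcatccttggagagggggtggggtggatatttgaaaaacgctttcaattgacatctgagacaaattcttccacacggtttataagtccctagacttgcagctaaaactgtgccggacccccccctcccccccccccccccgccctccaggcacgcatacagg
Shox2: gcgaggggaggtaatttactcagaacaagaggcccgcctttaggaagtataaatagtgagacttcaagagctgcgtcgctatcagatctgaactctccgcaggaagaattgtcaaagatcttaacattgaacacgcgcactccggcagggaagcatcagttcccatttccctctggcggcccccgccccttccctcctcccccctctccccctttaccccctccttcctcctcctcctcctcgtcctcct
Tbx18: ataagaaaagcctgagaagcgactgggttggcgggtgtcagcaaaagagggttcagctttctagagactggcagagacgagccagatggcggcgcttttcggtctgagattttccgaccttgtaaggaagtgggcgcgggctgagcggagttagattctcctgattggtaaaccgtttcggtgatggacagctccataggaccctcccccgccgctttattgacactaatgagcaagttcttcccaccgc
Meis1: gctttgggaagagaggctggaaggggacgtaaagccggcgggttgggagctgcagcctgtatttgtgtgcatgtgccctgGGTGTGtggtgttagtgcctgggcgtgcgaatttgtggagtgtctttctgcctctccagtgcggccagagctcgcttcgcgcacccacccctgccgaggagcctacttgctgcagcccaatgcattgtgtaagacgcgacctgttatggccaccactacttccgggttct
Both strands of the 5 promoters were searched for the CIC octamers TGAATGAA and TGAATGGA, which share their opening TGAATG, the T-box core GGTGTG, the Meis hexamer TGACAG and the Pitx motif TAATCC. The match was GGTGTG at bases -170 to -165 of Meis1, counted from the RefSeq start, and GGTGTG stood in 16.3% of all 32851 promoters of the same length. Neither CIC octamer was in these 5 windows (1.08% and 1.01% of all promoters), nor was TGACAG (15.9%) or TAATCC (6.25%). Tbx4 and Meis2, with 6 and 7 CG dinucleotides, were near the median of all promoters (6), and Tbx18, Meis1 and Shox2 had 15, 13 and 11.

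Shox2, a homeodomain factor of the proximal limb skeleton, was at 7.24, 10.1 and 10.6 CPM in dFLEx 170019, 170024 and 170025. It was at 1.53 CPM in KP 3800 and 14.5 CPM in KP 3802, a 9.47-fold difference (95% exact interval 7.65 to 11.8). The dFLEx tumors lay close together and between the KP tumors, and the log2 fold change was 0.22 (SE 0.90, adjusted p = 0.975, edgeR). It was 2.62 without KP 3802 and -0.48 without KP 3800. Shox2 shared 153 exonic bases (4.62%) with Rsrc1, a splicing gene that was at 31.3 to 44.4 CPM in all 5 tumors.

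Tbx18, a T-box factor of limb mesenchyme that also marks mural cells of vessels, was at 4.68, 4.91 and 7.34 CPM in dFLEx 170019, 170024 and 170025. KP 3800 was at 4.31 CPM and KP 3802 at 16.8 CPM, above every other tumor and 3.89-fold above KP 3800. The dFLEx values again lay between these, at the lower end. Its difference by edgeR, -0.90 in log2 units (SE 0.72, adjusted p = 0.828), was 0.41 without KP 3802. A feature named D030062O11Rik shared 970 bases, 20.6% of the exonic length of Tbx18, and was below 1 CPM in all 5 tumors.

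Tbx15, which acts in limb skeleton and in the glycolytic fibers of muscle, was at 30.9, 66.4 and 66.9 CPM in dFLEx 170019, 170024 and 170025. It was at 23.9 CPM in KP 3800 and 48.5 CPM in KP 3802, so the groups overlapped through 170019. Its log2 fold change was 0.60 (SE 0.65, adjusted p = 0.887, edgeR). Every dFLEx tumor was above KP 3800, and the log2 fold change of Tbx15 was 1.21 without KP 3802. Per kilobase it was the highest of the 10 factors in dFLEx 170024 and KP 3800, and second to Tbx3 or Pitx1 in the other tumors.

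The TALE factor Meis1, a cofactor of Hox proteins in the proximal limb, was at 10.2, 13.4 and 22.4 CPM in dFLEx 170019, 170024 and 170025, at 22.7 CPM in KP 3800 and at 6.70 CPM in KP 3802. The dFLEx tumors filled the space between the KP tumors, and the log2 fold change was 0.06 (SE 0.73, adjusted p = 0.991, edgeR). Without KP 3802 Meis1 stood at -0.55, and without KP 3800 at 1.36. Its relative Meis2 was at 2.51, 2.98 and 17.6 CPM in dFLEx 170019, 170024 and 170025, at 1.95 CPM in KP 3800 and at 7.72 CPM in KP 3802. Here 170025 was apart from the other dFLEx tumors, 7.02-fold above the lowest of them, the widest range of any factor within dFLEx. By edgeR the log2 fold change of Meis2 stood at 0.68 (SE 1.06, adjusted p = 0.923). It was -0.84 without dFLEx 170025 and 2.00 without KP 3802. Every dFLEx value of Meis2 was above that of KP 3800. Meis1 shared 18.3% of its exonic bases with overlapping features and Meis2 shared none.

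The KP tumors differed from each other more than the dFLEx tumors did for 7 of the 10 factors, which 48.0% of all genes tested did. The median ratio of the highest to the lowest tumor was 3.93 in KP and 2.14 in dFLEx. It was 2.32 and 2.38 over tested genes that averaged 1 CPM or more across all tumors and had reads in each tumor of the group. Pitx1, Tbx5 and Shox2 (3 of 10) were over 4-fold higher in KP 3802 than in KP 3800, as were 28.8% of all genes. Tbx4 (1 of 10) was over 4-fold higher in KP 3800, as were 13.1% of all genes. Both shares are near the background. The dFLEx tumors all lay between the KP tumors for 5 of 10 factors (Tbx5, Tbx18, Pitx1, Shox2 and Meis1), against 17.0% of all genes.

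Leaving out either KP tumor gave different values. Without KP 3802, 5 of 10 factors had an unadjusted p under 0.05, as did 14.9% of all genes tested. Tbx5, Pitx1 and Shox2 then stood at log2 fold changes of 4.23, 5.51 and 2.62, and without KP 3800 at -2.20, -1.82 and -0.48. Leaving out a single tumor changed the sign of the fold change for 7 of the 10 factors. Tbx2, Tbx3 and Tbx15 kept a log2 fold change above 0 with each of the 5 tumors left out, at 0.31 to 1.19, 2.10 to 3.75 and 0.34 to 1.21.

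**Figure D2:**
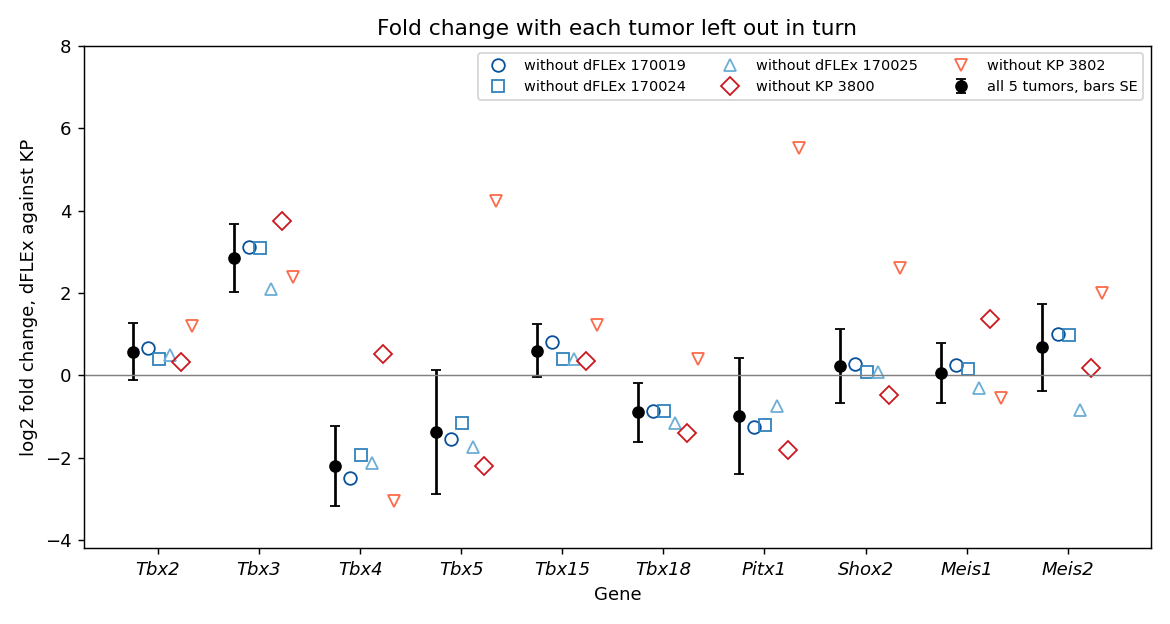
log2 fold change of dFLEx over KP for each limb factor in all 5 tumors (black points, bars SE) and with each tumor left out in turn (open symbols). Pitx1 moves from -0.99 to 5.51 without KP 3802 and Tbx4 from -2.20 to 0.51 without KP 3800, while every Tbx3 symbol lies above 0.

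Among the dFLEx tumors, CIC_DUX4 was at 105, 202 and 423 CPM in 170019, 170024 and 170025. Tbx3, Tbx15, Tbx18, Shox2, Meis1 and Meis2 (6 of 10) had their lowest, middle and highest values in the same order, as 29.0% of all genes did, and 0 of 10 had the opposite order, as 32.0% of all genes did. With 3 tumors this is a description only. The read totals of the tumors rose in the same order (47462244, 60557154 and 82138251), and the part of depth was not tested.

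Per kilobase of exon, which allows levels of different genes to be compared, Tbx3 and Tbx15 led in dFLEx at 19.9 ± 14.05 and 14.6 ± 5.50 CPM per kilobase (SD, n = 3). Both overlapped, and both were above the other 8 factors in every dFLEx tumor. Pitx1 and Shox2 followed at 3.68 ± 1.36 and 2.81 ± 0.54 CPM per kilobase, overlapping each other, and in 170025 Meis1 (2.13) was just above Pitx1 (2.10). Meis1, Tbx18 and Tbx2 had means of 1.46 ± 0.60, 1.196 ± 0.31 and 1.15 ± 0.25 CPM per kilobase, not separable from one another. Meis2 and Tbx4 had 0.64 ± 0.71 and 0.43 ± 0.15 CPM per kilobase and overlapped. In 170025 Meis2 (1.47) was above Tbx2 (1.23), so it was not separable from Tbx2 either. Meis2 was below Meis1 and Tbx18 in every dFLEx tumor, though its range overlapped theirs. Tbx5 was lowest at 0.114 ± 0.050, below Tbx4 in every dFLEx tumor.

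The KP tumors gave no such order, because their leading factors differed. In KP 3800 the leading factors were Tbx15, Tbx3 and Tbx4 at 6.37, 3.83 and 3.57 CPM per kilobase. In KP 3802 they were Pitx1, Tbx15 and Shox2 at 14.5, 12.9 and 4.38 CPM per kilobase. Tbx4 made up 19.8% of the summed level per kilobase of the 10 factors in KP 3800 and 0.830% in KP 3802, and Pitx1 0.448% and 36.0%. Tbx3 made up 30.3% to 54.6% of that sum in the dFLEx tumors, 21.2% in KP 3800 and 4.15% in KP 3802.

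**Figure D3:**
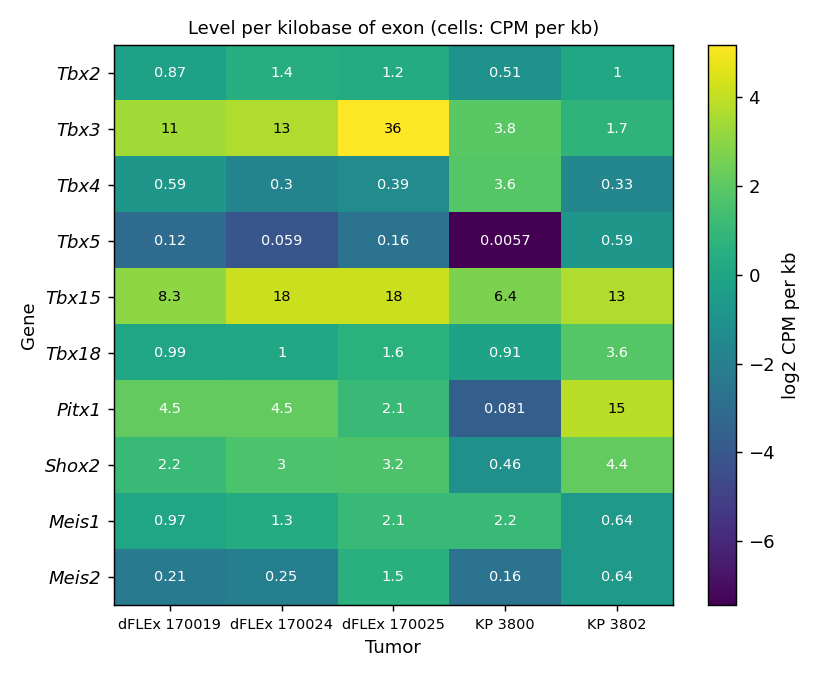
CPM per kilobase of exon for each limb factor (rows) in each tumor (columns), colored on a log2 scale, with the level printed in each cell. Tbx3 and Tbx15 have the highest cells in the dFLEx columns, Tbx4 is high in KP 3800 only, and Pitx1 is lowest in KP 3800 after Tbx5 and highest in KP 3802.

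Across tumors, the genes whose profiles were most like those of the factors were found among 13751 genes by the root mean square difference of centered log2 CPM over the 5 tumors. The nearest to Tbx3 were Cbx2, Frmpd3 and Tmem45a, at distances of 0.122, 0.158 and 0.163. Cbx2, a Polycomb protein, was at 42.7, 45.0 and 112 CPM in dFLEx 170019, 170024 and 170025, 13.2 CPM in KP 3800 and 6.26 CPM in KP 3802, so it was likewise highest in 170025 and lowest in KP 3802. The nearest to Pitx1 were the globin genes Hba-a1, Hbb-bs and Hba-a2, at 0.385, 0.560 and 0.570. Hba-a1, a hemoglobin chain of red cells whose near-identical copy Hba-a2 makes its count uncertain, was at 351, 494 and 122 CPM in those dFLEx tumors, 18.9 CPM in KP 3800 and 741 CPM in KP 3802. The closest profiles among the factors themselves were those of Tbx2 and Tbx15 (0.226), and the least alike were Tbx4 and Pitx1 (2.98). With 5 points these distances are descriptions of these tumors.

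The wider network was described by 5 lists, and 0 of their 69 tested genes passed the adjusted threshold by edgeR on tumor sums, against 0.182% of all genes. That call depended on the fit: 13 passed by DESeq2 on the same sums (6.18% of all genes), 9 by limma-voom (2.78%) and 9 by edgeR without a filter on low counts (1.98%). Among the limb bud signals, 20 of 22 genes were tested, 3 were higher and 1 lower in dFLEx at an unadjusted p under 0.05, and 6 lay above and 2 below KP in every dFLEx tumor. Over all genes, 10.6% had such a p in either direction, 13.7% lay above and 11.7% below. The list's median log2 fold change was 1.03, against -0.18 over all genes. Bmp4, a bone morphogenetic protein of limb mesenchyme, was at 97.3, 53.1 and 106 CPM in dFLEx 170019, 170024 and 170025, 1.75 CPM in KP 3800 and 3.05 CPM in KP 3802. Its log2 fold change was 5.16 (SE 0.77, adjusted p = 0.0664, edgeR), and Bmp7 had 4.46 (SE 1.04, adjusted p = 0.152). Cyp26b1, which degrades retinoic acid in the distal limb, was at 105, 166 and 508 CPM in dFLEx against 0.833 in KP 3800 and 2.15 in KP 3802. It gave 7.46 (SE 1.15, adjusted p = 0.0744, edgeR). Grem1, a secreted antagonist of these bone morphogenetic proteins, was at 7.91, 1.91 and 5.58 CPM in dFLEx against 200.04 in KP 3800 and 30.2 in KP 3802 (edgeR log2 fold change -4.49, SE 0.97, adjusted p = 0.128). The groups did not overlap for any of these 4 genes. Their differences missed the adjusted threshold here, and all 4 passed it by DESeq2 on tumor sums, by edgeR without a filter, by limma-voom and in both edgeR fits on libraries.

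Of 26 other limb bud transcription factors, 24 were tested, with 5 higher and 1 lower at an unadjusted p under 0.05 (10.6% of all genes in either direction) and a median log2 fold change of -0.10. In every dFLEx tumor 5 lay above KP (13.7% of all genes) and 3 below (11.7%). Twist1, a mesenchymal bHLH factor, was at 93.7, 82.2 and 126 CPM in dFLEx 170019, 170024 and 170025, 24.1 CPM in KP 3800 and 12.1 CPM in KP 3802 (log2 fold change 2.47, SE 0.64, adjusted p = 0.196, edgeR). Prrx1, the homeobox factor that marks limb mesenchyme, lay the other way, at 17.6, 28.3 and 46.4 CPM in dFLEx and 292 and 78.2 CPM in KP 3800 and 3802 (-2.59, SE 0.74, adjusted p = 0.230). Irx3, a proximal limb factor, had 2.94 (SE 0.83, adjusted p = 0.222, edgeR). Twist1, Prrx1, Irx3 and Dlx5 all passed the adjusted threshold by DESeq2 on tumor sums. Dlx5, a skeletal homeodomain factor, was at 2.14 to 2.32 CPM in dFLEx, 0 counts in KP 3800 and 0.122 CPM in KP 3802. The hind limb and lumbosacral Hox genes Hoxc10 and Hoxc11 overlapped between groups, at 11.2 to 34.1 and 15.7 to 33.6 CPM over the 5 tumors, and were named after their values were seen.

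Of 11 further T-box genes, 9 were tested and 1, Tbx10, had an unadjusted p under 0.05 (10.6% of all genes), while 2 lay above KP (13.7%) and 2 below (11.7%) in every dFLEx tumor. Tbx10 had 32, 32 and 4 counts in dFLEx 170019, 170024 and 170025 and 0 in both KP tumors, too few for a fold change. Tbx6 was higher and Tbx21 and Eomes, T-box factors of lymphocytes, were lower in every dFLEx tumor, all with at most 2.68 CPM in any tumor and adjusted p of 0.615 to 0.676 by edgeR. The 11 TALE and Pitx relatives were all tested, with 0 higher and 2 lower at an unadjusted p under 0.05 (10.6% of all genes in either direction). These were Tgif1, a TALE repressor (log2 fold change -1.87, SE 0.61, adjusted p = 0.298, edgeR), which passed the adjusted threshold by DESeq2 and limma-voom, and Pitx3 (-1.94, SE 0.76, adjusted p = 0.414). In every dFLEx tumor 1 of the 11 relatives lay above KP (13.7% of all genes) and 4 lay below (11.7%), among them Tgif1 and Pitx3. Meis3, named after its values were seen, was also below, at 3.63 to 5.17 CPM in dFLEx against 7.20 and 7.60 CPM in KP 3800 and 3802. The TALE gene Pknox2 overlapped between groups, at 5.97 to 31.5 CPM in dFLEx and 3.41 to 8.72 CPM in KP.

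Of 6 genes known to be repressed by Tbx2 or Tbx3, 5 were tested. Cdh1, an epithelial cadherin, was at 0.896, 1.37 and 0.453 CPM in dFLEx 170019, 170024 and 170025, 12.4 CPM in KP 3800 and 4.75 CPM in KP 3802 (log2 fold change -3.24, SE 0.79, adjusted p = 0.168, edgeR). Cdkn2a, the locus of the cell cycle inhibitors Ink4a and Arf, was at 357, 192 and 46.6 CPM in dFLEx and 1256 and 1589 CPM in KP 3800 and 3802 (-2.84, SE 0.81, adjusted p = 0.228). Both, 2 of the 5 tested, were lower in every dFLEx tumor (11.7% of all genes) and had an unadjusted p under 0.05 (10.6%), and both passed the adjusted threshold by DESeq2, limma-voom and edgeR without a filter. The floxed p53 alleles are in the KP genotype only, and their part in these values cannot be told apart from the grouping. Gja5 and Gja1, which encode gap junction proteins, and the cell cycle inhibitor Cdkn1a, named after its values were seen, overlapped between groups, with log2 fold changes of 0.53, 0.31 and 0.02.

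**Figure D4:**
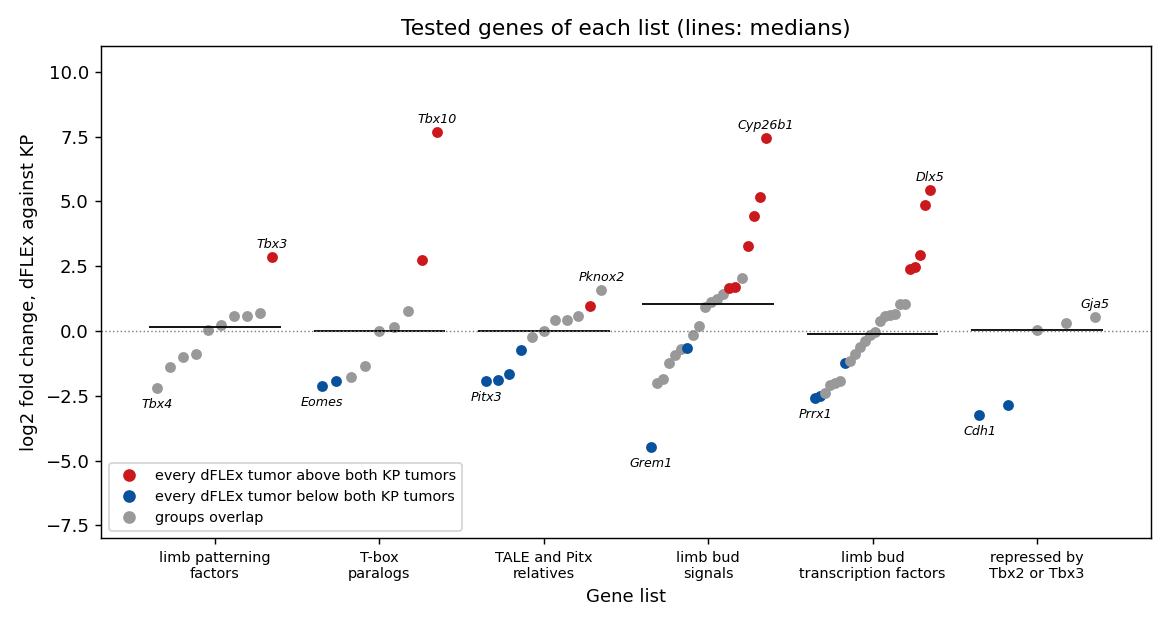
log2 fold change of dFLEx over KP for each tested gene of the limb factors and of the 5 related lists, 1 point per gene, with list medians as lines. Red and blue points are genes whose groups do not overlap. Tbx3 is the red point among the 10 limb factors, and the limb bud signals hold 6 red and 2 blue points. Tbx10, with 0 counts in KP, is drawn at its fitted value.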

How the data were processed

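Per the labels and the study's methods, the authors trimmed paired 150-base reads with Trimmomatic 0.39, aligned them with STAR 2.7.10a to mm39 plus the construct, and deposited raw counts per gene made with featureCounts (Subread 2.0.3) without strand. GENCODE M39 gave symbols for 98.7% of the features. Here the counts of duplicate libraries were summed per tumor (5 tumors, 20503474 to 46302223 reads per library), which limits any value to the reads of its tumor. Low genes were removed with filterByExpr and dFLEx was tested against KP with edgeR 4.0.16 (R 4.3.3), TMM scaling and Benjamini-Hochberg adjustment, after a test on simulated data. The tumor numbers of the labels were taken as separate tumors. DESeq2 1.42.0, limma 3.58.1, other scalings, filters and left-out tumors were alternatives. Duplicates differed by a median of 1.18-fold over 39 pairs and at most 2.05-fold. The genes named from each related list were those with the 4 lowest p-values, and 3 nearest profiles were sought per factor. The factors and lists were chosen with earlier results of these data known. The second library of KP 3802 was not analysed here. A further allele of the KP genotype and 1 gene of the related lists are not reported here by name.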

Additional observations from a re-analysis of the deposited data

How the results depend on the processing

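Of 169 alternative values of the 10 fold changes, 18 changed sign, 7 came to pass the threshold (Tbx3 in 5 settings and Tbx4 in 2) and 144 kept their side. The cause was not tested. Meis1 was -0.16 with libraries as independent samples, -0.16 with the duplicate number as a replicate block, -0.17 by library totals, and -0.32 without dFLEx 170025, and its left-out values ran from -0.55 to 1.36. Shox2 was -0.14 by library totals, -0.36 by upper quartile, -0.17 with a mean of at least 1 CPM (a filter that dropped Tbx5), -0.12 on first libraries and -0.48 to 2.62 with a tumor left out. Meis2 was -0.029 by upper quartile and -0.84 to 2.00 with a tumor left out. By limma-voom, Tbx5 was 0.72 and Pitx1 2.34. Left-out values ran from -2.20 to 4.23 for Tbx5, -1.82 to 5.51 for Pitx1 and -1.40 to 0.41 for Tbx18, all highest without KP 3802, and from -3.05 to 0.51 for Tbx4, highest without KP 3800. The hind limb to fore limb contrast was 0.95 with Pitx1 alone and -3.80 to 0.55 with a tumor left out.

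Genes passing the adjusted threshold numbered 45, against 1528 by DESeq2, 3344 with independent libraries, 543 by limma-voom, 2476 with the replicate block, 880 without a filter, 80 with a mean of at least 1 CPM, and 0 (without 170019 or 170024) to 414 (without KP 3802) in left-out fits. In the same order up to no filter, the limb factors passing were 1, 2, 1, 2 and 1, and the genes of the related lists 13, 17, 9, 13 and 9. Those lists had 2 with the receptor background subtracted, chosen after seeing the data, and 0 to 4 with a tumor left out. Duplicate numbers did not pair tumors (correlations of -0.0126 to 0.0162 over 6 pairs of tumors). With 2 KP tumors, and 2 to 68 reads of Tbx5 per tumor, small differences were not detectable at this depth.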
